A study of Oryza sativa with 2 samples.

Results

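CEBIP, Cht11, the chitinase gene LOC4342115 and PBZ1 are 4 rice genes of chitin perception, chitin breakdown and pathogenesis response, out of 17905 genes represented on the array. They were found by symbol or synonym in the rice gene table, and they had been chosen by their log2 ratios of leaf signal between OsEATB transgenic and nontransgenic seedlings. CEBIP and LOC4342115 were the members with higher signal in transgenic leaves, and Cht11 and PBZ1 those with lower signal. These differences are therefore a description of the choice and carry no test. The transgenic group was the indica cultivar 9311 carrying OsEATB, a gene for a transcription factor of the ERF family, and the nontransgenic group was 9311 without it. Each group was 1 array of leaf RNA from 10 seedlings with 4 leaves, kept at 28 °C with 14 h of light and 10 h of darkness in diluted Murashige and Skoog medium. The sources used here give neither the promoter of the transgene nor the number of transgenic lines. With 1 array per group, no ratio below has a replicate check, and the precision of every value is limited by that number. OsEATB itself could not be matched to a probe set by name, so its own signal gives no check of the genotype labels.

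Plants detect fungi through chitin, the polymer of fungal cell walls. In rice, fragments of chitin are bound at the cell surface by CEBiP, a protein with LysM domains and no kinase of its own, which works with the LysM receptor kinase CERK1 to switch on defence. Chitinases cut chitin, and so can both damage hyphae and release the fragments that receptors bind. PBZ1 is a pathogenesis-related protein of the PR10 family, named for its induction by probenazole, a compound that protects rice from blast disease.

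Each of the 4 genes was read by 1 probe set, so no second probe set on these arrays checks any of their values. All 4 probe sets carried the plain suffix that marks a set designed for 1 transcript, and 0 carried a suffix for several transcripts. All 4 also passed the level filter, which asked for a log2 signal at or above the array's median on at least 1 array (5.32 on the transgenic and 5.16 on the nontransgenic array). No signal of the 4 lay below the floor, set at the 40th percentile of each array (4.61 on the transgenic and 4.41 on the nontransgenic array). Their ratios are thus not lower bounds set by the floor. The floor is no detection call, so a signal above it need not be that of a detected transcript. Signals of different probe sets depend on probe design, so a difference in signal between genes is not read as a difference in transcript level here.

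CEBIP, the chitin receptor gene, had a log2 signal of 12.40 in transgenic leaves, against 10.63 in nontransgenic leaves. On the linear scale the signal was 5418 on the transgenic array and 1583 on the nontransgenic array. The log2 ratio of transgenic over nontransgenic was 1.78, or 3.42-fold higher. Both signals were bright, above 96.5% of the probe sets on the transgenic array and above 88.3% on the nontransgenic array.

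LOC4342115, which the gene table also lists as Cht1, OsChia1a and RC24, encodes a class I chitinase. Its log2 signal was 7.38 in transgenic leaves, against 5.29 in nontransgenic leaves, and its linear signal was 167 in transgenic leaves, against 39.2 in nontransgenic leaves. The log2 ratio was 2.09, or 4.27-fold higher. The nontransgenic signal was above 51.6% of the probe sets of its array and so lay just over the array's median, in the range where these signals scatter most.

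Cht11 (LOC4331519), a further chitinase gene, had a log2 signal of 7.86 in transgenic leaves, against 10.08 in nontransgenic leaves. The linear signal was 232 on the transgenic array and 1085 on the nontransgenic array. The log2 ratio was -2.22, or 4.67-fold lower in transgenic leaves. In position on the array it stood above 72.0% of the probe sets in transgenic leaves and above 84.9% in nontransgenic leaves.

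PBZ1 (LOC4352491) had a log2 signal of 10.46 in transgenic leaves, against 12.28 in nontransgenic leaves. The linear signal was 1406 on the transgenic array and 4981 on the nontransgenic array, and the log2 ratio was -1.82, or 3.54-fold lower. The transcript stayed bright in transgenic leaves, above 87.4% of the probe sets of that array. In leaf RNA taken in bulk, fewer expressing cells and less RNA per cell cannot be told apart, here and for the other 3 genes.

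**Figure D1:**
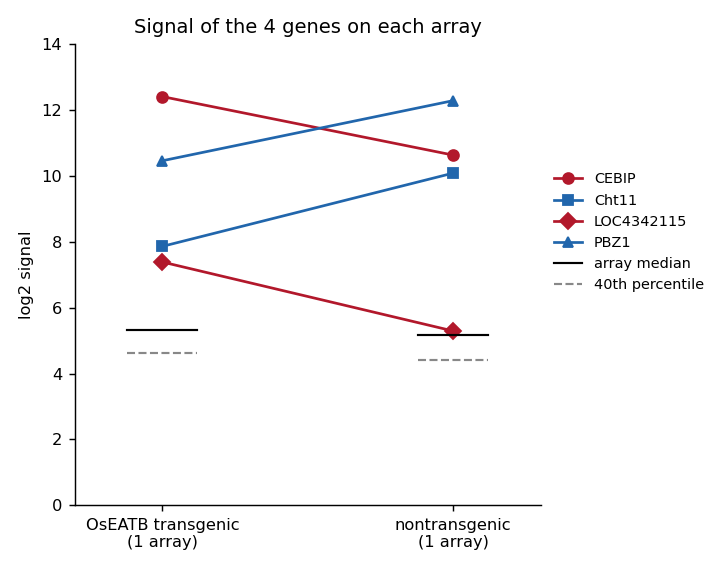
The log2 signal of each gene (vertical axis) on the transgenic and the nontransgenic array, with red lines for the 2 genes higher in transgenic leaves and blue lines for the 2 lower ones. Short bars mark each array's median and its 40th percentile; the nontransgenic signal of LOC4342115, at 5.29, lies next to the median of 5.16, and the other 3 genes lie well above both marks on both arrays.

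In these values the members diverged most within the chitinases. The log2 ratio of LOC4342115 exceeded that of Cht11 by 4.32. The ratio of CEBIP exceeded that of Cht11 by 4.00 and that of PBZ1 by 3.60. Within each direction the ratios lay close together, with CEBIP 0.32 below LOC4342115 and PBZ1 0.40 above Cht11 on the log2 scale. The value of 0.32 is less than the scatter of 0.64, described below, among genes as dim as LOC4342115.

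Across the 15192 genes that passed the level filter, 922 (6.07%) were higher by 2-fold or more in transgenic leaves and 674 (4.44%) were lower by as much, 10.5% in all. All 4 members were past 2-fold, which their choice fixed. Among all passing genes the share of higher genes in those past 2-fold was 57.8%, and 42.5% after each array was centred on its own median, which moved the median log2 ratio of all genes by -0.16. Ranked by ratio, LOC4342115 was number 145 and CEBIP number 248 from the top, while Cht11 was number 63 and PBZ1 number 119 from the bottom.

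The size of a ratio on these arrays went with brightness, and the members lay in different parts of that range. With the passing genes sorted by mean signal into 20 equal classes, 1.58% of the genes in the class of CEBIP, and the same share in that of PBZ1, differed by 2-fold or more. That share was 8.03% in the class of Cht11 and 22.7% in the class of LOC4342115. A ratio at least as large in either direction was held by 2 of 759 genes in the class of CEBIP and by 1 of 759 in that of PBZ1, counting the member itself. For Cht11 it was held by 12 of 760 genes and for LOC4342115 by 49 of 759. The members were chosen by these ratios, so low counts here follow from the choice and test nothing.

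The only measure of error within the arrays is the scatter between probe sets of 1 gene, available for 2414 genes with several passing probe sets. Such probe sets read the same RNA and leave out the spread between plants and between hybridisations. The passing genes were divided by brightness into 3 equal groups, which held 516, 846 and 1052 of these genes. The 2 brightest probe sets of a gene had ratios of the same sign in 60.3% of the dimmest group. That share was 59.7% in the middle and 60.6% in the brightest group. It took in genes of any ratio, also those near 0. The scatter of a log2 ratio was 0.64 in the dimmest group, where LOC4342115 lay, 0.39 in the middle group, where Cht11 lay, and 0.30 in the brightest group, where CEBIP and PBZ1 lay. The ratio of LOC4342115 was 3.26 times the scatter of its group. The corresponding values were 5.72 for Cht11, 5.98 for CEBIP and 6.15 for PBZ1. The choice of the members by their ratios makes such multiples large, so they are no test of the members. The spread between plants was not measured, so these values do not show how far the genotypes differ beyond it.

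**Figure D2:**
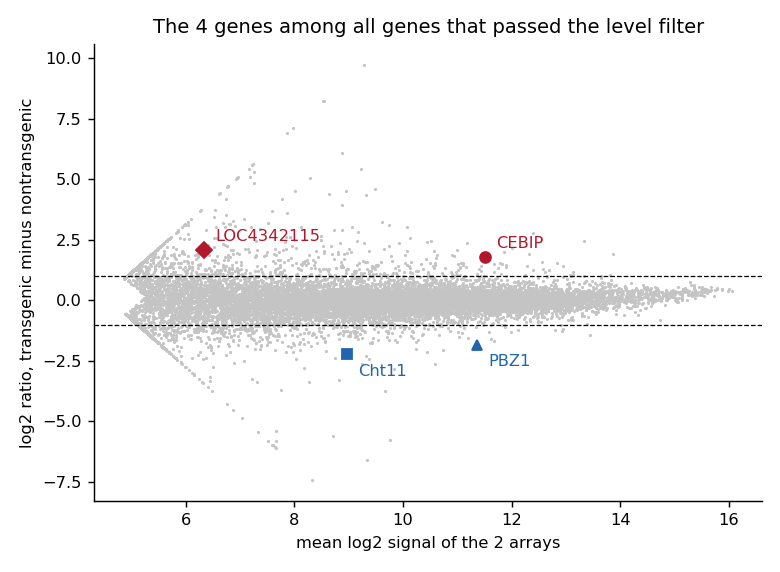
The log2 ratio of transgenic over nontransgenic signal (vertical axis) against the mean log2 signal of both arrays (horizontal axis) for 15192 genes in grey and for the 4 members in colour; dashed lines mark 2-fold. CEBIP and PBZ1 stand apart from the narrow band of bright genes, while LOC4342115 lies in the wide spread of dim genes, where 22.7% of its brightness class were past 2-fold.

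Chitin receptors other than CEBIP had ratios under 2-fold. Of 4 receptor genes measured, CEBIP, chosen by its ratio, was the 1 past 2-fold, against 10.5% of all passing genes, and 0 were at least 2-fold lower. The median log2 ratio of the list was -0.10, or -0.50 over the 3 genes without CEBIP, against -0.01 over all passing genes. CERK1 (LOC4346173), the receptor kinase that acts with CEBiP, had log2 signals of 10.64 in transgenic and 10.34 in nontransgenic leaves, a log2 ratio of 0.29. LYP4, a LysM protein that binds chitin and bacterial peptidoglycan, stood at 5.85 in transgenic and 6.50 in nontransgenic leaves. RLK10, to which the gene table also gives the synonym CERK1, stood at 9.74 in transgenic and 10.23 in nontransgenic leaves. Its second probe set had a log2 ratio of -0.39, against -0.50 for the brighter one, which carried a suffix for several transcripts. Without probe sets of that kind the median of the list, with CEBIP, was -0.05.

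The relay that carries the chitin signal into the cell was measured by 9 genes, of which 0 were higher and 1 was lower by 2-fold or more, with a median log2 ratio of -0.17. With 10.5% of all passing genes past 2-fold in either direction, 1 of 9 is near the background. The lower gene was RBOHB, an NADPH oxidase that makes reactive oxygen at the plasma membrane, at 9.06 in transgenic and 10.32 in nontransgenic leaves, 2.38-fold lower. Its probe set carried a suffix for several transcripts, as was Rac1, a small GTPase that acts on the oxidase, with a log2 ratio of -0.64. The co-chaperone genes SGT1 and RAR1, which stabilise immune receptors, had log2 ratios of -0.20 and 0.29. SPL11, a ubiquitin ligase that restrains cell death, stood at 12.44 in transgenic and 12.59 in nontransgenic leaves. The MAP kinase genes MPK6 (LOC4349225) and MPK5 had log2 ratios of 0.01 and -0.17. LOC4349225 was matched by the name MPK6 alone, and whether it is the kinase of the chitin relay was not examined. A further MAP kinase gene, LOC4328297, had -0.46, and the calcium-dependent kinase gene CPK4 had 0.28.

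Of 16 chitinase genes matched by name, 14 had a probe set and 8 passed the level filter. LOC4342115 and Cht8 were at least 2-fold higher, Cht11 was at least 2-fold lower and 5 were under 2-fold, with a median log2 ratio of 0.04. Without the members, 1 of 6 was higher and 0 lower, where 6.07% of all passing genes were higher and 4.44% lower by 2-fold. Cht8 (LOC4349267) rested on 1 of its 3 probe sets. The brightest had log2 signals of 8.30 in transgenic and 7.19 in nontransgenic leaves, a log2 ratio of 1.11, while another had 0.39, and the dimmest had a log2 ratio of -0.76 with its transgenic signal at the floor. Cht8 was not past 2-fold as the mean over its probe sets, nor with the arrays centred on their medians, which left LOC4342115 as the 1 higher chitinase gene.

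The chitinase genes under 2-fold lay on both sides of 0. Rcb4 stood at 11.74 in transgenic and 12.45 in nontransgenic leaves, a log2 ratio of -0.71. Cht10 had log2 signals of 8.13 in transgenic and 8.92 in nontransgenic leaves, and Cht6 had 7.98 in transgenic and 8.04 in nontransgenic leaves. Chib3H-h had a log2 ratio of 0.84 from dim signals, 5.92 in transgenic and 5.08 in nontransgenic leaves. Cht3 (LOC4342114), which lies next to LOC4342115 in the annotation, stood at 5.81 in transgenic and 5.68 in nontransgenic leaves. Both of its probe sets carried a suffix for several transcripts, so its signal may include those of relatives. The 6 genes that did not pass were Cht4, Cht5, Cht7, Cht9, LOC4351188 and RIXI, a xylanase inhibitor of the chitinase fold. RIXI had log2 signals of 0.67 in transgenic and 5.08 in nontransgenic leaves, the first below the floor and the second below the array's median.

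PBZ1 was the only gene matched as a PR10 member by name, so no named relative was set beside it here. Relatives without such a name would not have been matched. Whether the unnamed neighbours of PBZ1 given below are relatives was not examined. Among 4 other pathogenesis-related and salicylic acid genes, 1 was at least 2-fold higher and 0 lower. Over all passing genes, 6.07% were higher and 4.44% lower by as much. The median log2 ratio of the 4 was 0.55, and all 4 ratios were above 0, as were 48.6% of those of all passing genes. Of the 4, 3 were under 2-fold. RBBI3.3, a Bowman-Birk trypsin inhibitor gene, stood at 11.85 in transgenic and 10.38 in nontransgenic leaves, 2.77-fold higher, on a probe set with a suffix for several transcripts. NPR1, a coregulator of the salicylic acid response, stood at 9.17 in transgenic and 8.90 in nontransgenic leaves, and its relatives NPR2 and NPR3 had log2 ratios of 0.32 and 0.77. The log2 ratio of PBZ1 was below 0, which its choice fixed, so its opposite sign to these 4 tests nothing.

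**Figure D3:**
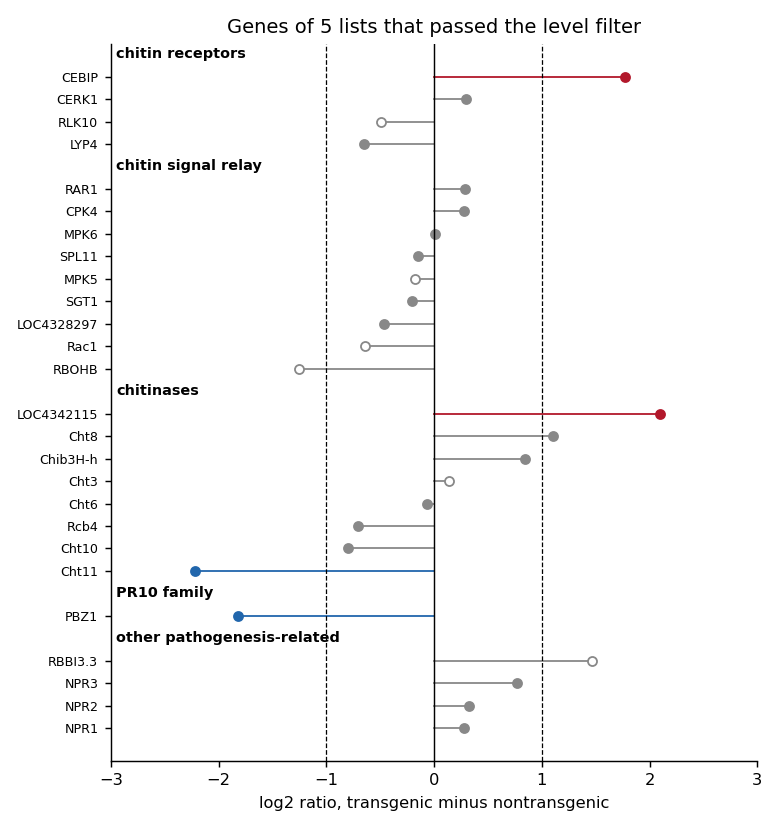
The log2 ratio of transgenic over nontransgenic signal (horizontal axis) for the genes of 5 lists that passed the level filter, with the 4 members in red (higher) and blue (lower), other genes in grey, open circles for probe sets whose suffix marks several transcripts and dashed lines at 2-fold. The chitinases spread from -2.22 for Cht11 to 2.09 for LOC4342115, and the receptors other than CEBIP lie between -0.65 and 0.29.

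CEBIP and Cht11, which went in opposite directions, are close neighbours. In the reference annotation, which served for names, gene order and overlap, 3 protein-coding genes lie between them. Of these, LOC4331521 stood at 7.40 in transgenic and 4.66 in nontransgenic leaves, a log2 ratio of 2.75. LOC4331520 had a log2 ratio of 0.48, and the remaining gene had no probe set in the table. Of 8204 pairs of passing genes with 3 protein-coding genes between them, 111 had both genes past 2-fold, and in 48 of these the genes went in opposite directions.

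In the annotation, 1 protein-coding gene overlaps CEBIP. On the side of CEBIP away from Cht11, the next gene, LOC4331524, had log2 signals of 7.42 in transgenic and 8.54 in nontransgenic leaves, a log2 ratio of -1.12. The gene after it, LOC4331525, was under the floor in transgenic leaves, at a log2 signal of 2.56, against 8.35 in nontransgenic leaves, so that its log2 ratio was -3.74 or lower. LOC4331521 and LOC4331525 reached the median on 1 array each and so passed the filter only through the group where they are high. CEBIP and Cht11 were chosen by their ratios, and no count of genes past 2-fold is drawn from this stretch.

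Within 4 places of LOC4342115, 4 of 8 genes passed, 0 of them were past 2-fold (10.5% over all passing genes), and their log2 ratios ran from -0.20 to 0.50. Within 4 places of PBZ1, 4 of 8 genes passed, 0 of them were past 2-fold, and their log2 ratios ran from -0.99 to 0.42. The lowest ratio there was that of LOC4352488, at 6.38 in transgenic and 7.37 in nontransgenic leaves, and the gene next to PBZ1, LOC4352490, had a log2 ratio of -0.27. Neither has a descriptive name in the table.

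**Figure D4:**
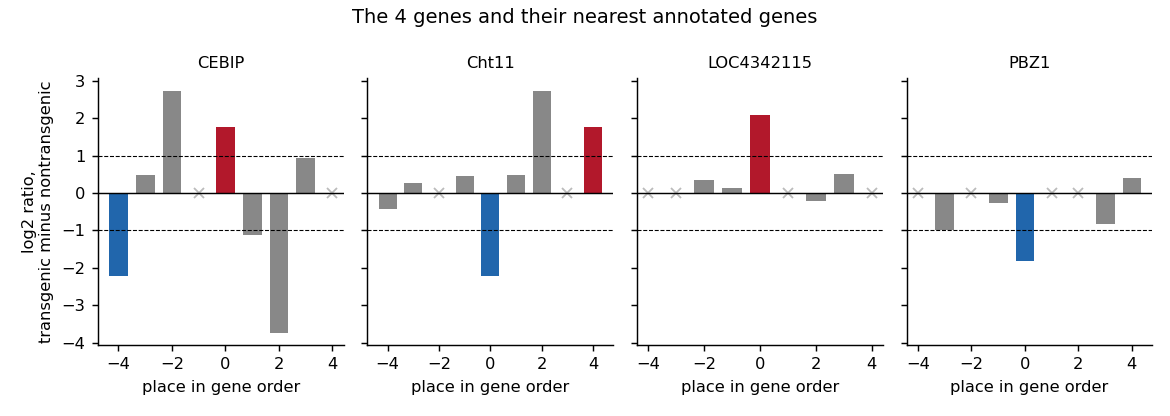
The log2 ratio of transgenic over nontransgenic signal (vertical axis) for each member at place 0 and the 4 protein-coding genes on either side in annotation order (horizontal axis), with members in red or blue, other genes in grey, crosses for genes with no passing probe set and dashed lines at 2-fold. CEBIP and Cht11 appear in each other's panel, and none of the 4 passing genes around LOC4342115, or of the 4 around PBZ1, reaches 2-fold; the other places there have no passing probe set.

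Named genes with the most similar pair of signals were found by Euclidean distance over the log2 signals of the 2 arrays, among 2142 passing genes with a descriptive name. Nearest to CEBIP were CIPK8, a kinase gene of calcium signalling, at a distance of 0.39, and INO1, a gene of inositol synthesis, at 0.46. Nearest to LOC4342115 were the calmodulin-like gene CML15 at 0.18 and the expansin gene EXPB6 at 0.41. Nearest to PBZ1 were OsPBC1 at 0.32 and OsCASPL2C1 at 0.58, and nearest to Cht11 were OrysaZxb at 0.53 and the phosphate exporter gene OsPHO1;2 at 0.68. Such likeness means only that 2 probe sets gave similar brightness and a similar ratio on 2 arrays, and it compares no transcript levels.

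Tissue markers were read on both arrays to check the leaf label. All 8 measured genes of the leaf marker list passed, with log2 signals between 10.42 and 16.26 in transgenic and between 10.58 and 15.86 in nontransgenic leaves. Of the 8, 0 were past 2-fold. Both lower ends were those of LOC4334338, which was matched by the name FNR, as was LOC4342399 at 10.57 in transgenic and 10.70 in nontransgenic leaves. That name does not show that they are leaf forms. LFNR1 stood at 13.55 in transgenic and 13.52 in nontransgenic leaves. The summed linear signal of all 8 genes was 338800 in transgenic and 255483 in nontransgenic leaves. Of 2 root markers 1 passed, the silicon transporter gene Lsi1, at 9.57 in transgenic and 8.62 in nontransgenic leaves, while Lsi2 was below the floor on both arrays. Of 7 developing seed markers 4 passed, with log2 signals between 5.37 and 11.23 in transgenic and between 1.07 and 10.96 in nontransgenic leaves, and 0 of 2 pollen markers passed. Among the seed markers GBSS-I, a starch synthase gene, was lower by 2-fold or more, at a log2 ratio of -1.04, and GLUA-3, a glutelin gene, had 0.95 from a signal under the floor in nontransgenic leaves. The summed linear signal of the passing seed markers was 2719 in transgenic and 2521 in nontransgenic leaves, most of it from GLUA-2, at log2 signals of 11.23 in transgenic and 10.96 in nontransgenic leaves. The part of tissue makeup in the members' ratios was not tested.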

How the data were processed

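Leaf RNA of 1 transgenic and 1 nontransgenic group was hybridised to 1-colour 3′ expression arrays, 1 array each. The deposited values are log2 signals made by the authors with MAS5, as the submitters' processing notes state. The sources used here give no version, scaling target or detection calls. Unlogged, both arrays had a trimmed mean of 499.9 (2% trimmed at each end), so the scaling removes any overall difference in brightness. Per-sample columns left unmapped numbered 0.

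Of 57381 probe sets, 187 controls were set apart. Of the rest, 22436 had 1 gene in the platform's table, 95 several and 34663 none. Gene numbers were updated through a RefSeq table of rice genes (ASM3414082v1), where all 17905 genes were found. Its coordinates served for gene order and overlap and are not printed, since the files name no build. Signals below the 40th percentile of an array were raised to it, a gene had to reach the median on at least 1 array, and it was represented by its brightest passing probe set. The log2 ratio is transgenic minus nontransgenic and the threshold 2-fold. With 1 array per group no test exists, and none was run. Scatter between the 2 brightest probe sets of a gene is the scaled median absolute deviation of the difference of their log2 ratios, divided by the square root of 2. Counting was tested on simulated data. Python 3.11.15, pandas 2.3.3, numpy 2.4.6 and statsmodels 0.14.6 (lowess) were used.

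The members and gene lists were chosen with earlier results of these data known. Lists were matched by symbol or synonym, and 4 genes that matched by a shared abbreviation but encode something else were removed. Genes were named by a rule: the 4 members, every gene of a list past 2-fold, the 5 brightest of each list and the 2 genes most like each member. Further list members and neighbours were named to account for all of a list or place. Alternatives changed the floor, the scaling, the choice of probe sets, a pseudocount of 16 and the level filter. Promoter motifs were not analysed here.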

Additional observations from a re-analysis of the deposited data

How the results depend on the processing

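Under 8 alternatives for the floor, the scaling, the choice of probe sets and a pseudocount, all 4 members kept their direction and stayed past 2-fold. The log2 ratio ranged from 1.62 to 1.79 for CEBIP, from 1.73 to 2.09 for LOC4342115, from -2.38 to -2.15 for Cht11 and from -1.98 to -1.81 for PBZ1. As each has 1 probe set and no signal under either floor, 4 of the 8 alternatives, those on probe sets and on the floor, could not move them. The lowest value of LOC4342115 came with the pseudocount of 16, which shrinks ratios of dim genes. There its log2 ratio of 1.73 lay below the 1.77 of CEBIP. The widest gap was then between CEBIP and Cht11 and not within the chitinases. The higher chitinases numbered 1 with median centring, 1 with the mean over probe sets and 0 with the level filter at the 75th percentile, where LOC4342115 and Cht8 were left out. That filter brought the list medians to -0.79 for the chitinases and 0.29 for the receptors, and the counts over all genes to 297 higher and 218 lower, since fewer genes were tested. With the sets left out whose suffix marks several transcripts, 0 relay genes were lower and 0 other pathogenesis-related genes were higher, since RBOHB and RBBI3.3 have no other probe set. No paired analysis was possible because each group has 1 array, and no array could be left out.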
